A study of Mus musculus with 2 samples.

Results

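The 9 genes described here encode the T cell checkpoint receptors PD-1 (Pdcd1), CTLA-4 (Ctla4), LAG-3 (Lag3), TIM-3 (Havcr2), TIGIT (Tigit), CD96 (Cd96), CD226 (Cd226) and ICOS (Icos), and the nuclear protein TOX (Tox). They were matched by symbol, all 9 among the 32285 gene models of the deposited matrices. The material was droplet 3′ single-cell RNA of CD45-selected cells from mouse tumours, 1 library named CEP, after cepharanthine, the plant alkaloid in the series title, and 1 library named Vehicle (spelled "Vehide" in its label). The design text gives 5 biological replicates for each group, but the cells cannot be traced to animals, so each group was 1 sample; the tumour line, mouse strain, sex, age, dose and schedule are not given in the sources used here.

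A T cell responds to an antigen only when its receptor signal is joined by co-stimulation, and checkpoint receptors raise or lower that second signal. PD-1, CTLA-4, LAG-3, TIM-3 and TIGIT restrain the cell, ICOS and CD226 support it, and CD96 shares its ligand CD155 with TIGIT and CD226. Activated and chronically stimulated CD8 T cells of tumours carry PD-1, LAG-3 and TIM-3 and express TOX, a factor of the exhausted state, while tumour regulatory T cells are known for CTLA-4, TIGIT and ICOS.

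Cells were assigned by a few transcripts that are not among the 9 genes. A unique molecular identifier (UMI) counts 1 captured RNA molecule. T and NK cells had at most 3 UMIs of the macrophage genes C1qa, C1qb and C1qc. CD8 T cells had at least 2 UMIs of Cd3d, Cd3e and Cd3g, at least 1 of Cd8a or Cd8b1 and none of Foxp3. Regulatory T cells had at least 1 Cd3 and 1 Foxp3 UMI, other T cells had at least 2 Cd3 UMIs but neither Cd8 nor Foxp3, and NK cells had at least 2 UMIs of Ncr1, Klrb1c and Klre1 together and at most 1 Cd3 UMI. Of 8828 kept CEP cells and 9210 kept Vehicle cells, these rules gave 45 and 72 CD8 T cells, 32 and 54 regulatory T cells, 111 and 175 other T cells, and 20 and 21 NK cells. Macrophages (at least 10 C1q UMIs, 4139 and 4594 cells), neutrophils (1229 and 1586), dendritic cells (63 and 58) and keratin-positive cells (811 and 129) served as references.

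Some cells in the gates carried transcripts of other cell kinds, which bears on every value below. In the other T gate, 15 of 111 CEP and 25 of 175 Vehicle cells carried at least 10 UMIs of the neutrophil genes S100a8 and S100a9, with a median of 0 UMIs of the T cell genes Trac, Trbc1, Trbc2, Trdc, Tcrg-C1, Cd2 and Lck together. The summed neutrophil marker level of that gate was 56318 counts per 1000000 UMIs (CPM) in CEP and 61371 CPM in Vehicle, and 309 and 81.7 CPM once such cells were left out. In the Vehicle regulatory T gate, 2 cells with that many S100a8 and S100a9 UMIs accompanied a neutrophil marker level of 11385 CPM, against 883 CPM in CEP. Unlike those of the other T gate, these 2 carried T cell transcripts. Their median was 6.5 UMIs of the same T cell genes, against 4.5 in the remaining cells of the gate. The CEP regulatory T gate held 2 cells with at least 5 UMIs of Epcam and keratin genes and an epithelial marker level of 2366 CPM, against 10.9 CPM in Vehicle. Markers of gamma-delta T cells stood at 589 CPM in CEP and 2876 CPM in Vehicle within other T cells. The libraries shared 136 cell barcodes, of which 5 CEP and 1 Vehicle cells fell in the 4 lymphocyte classes. In the NK gate, markers of dendritic cells stood at 1750 CPM in CEP and 1095 CPM in Vehicle, mostly H2-Ab1, and those of macrophages at 2500 and 1421 CPM. Clec9a, Flt3 and Xcr1, genes of dendritic cells, were each in 5.0% of CEP and 4.76% of Vehicle NK cells, which is 1 cell a library for each gene. Whether the same cell held all of them was not examined. The part of dendritic and macrophage transcripts in the NK values was not tested. Levels without the cells with at least 10 S100a8 and S100a9 UMIs or at least 5 keratin-gene UMIs are given below for other T cells, and for regulatory T cells in the genes highest there.

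Nkg7 and Il2ra, which the gates did not use, differed between CD8 T and regulatory T cells as the class names imply. Nkg7, a granule protein gene of cytotoxic cells, was at 1929 CPM in CEP and 2252 CPM in Vehicle CD8 T cells. It was at 87.8 and 76.3 CPM in regulatory T cells, and at 1417 and 1449 CPM in NK cells. Il2ra, the interleukin-2 receptor alpha chain, was at 507 and 556 CPM in regulatory T cells, against 123 and 92.8 CPM in CD8 T cells. Cd4 was at 0 UMIs in CD8 T cells of both libraries. Of the NK markers, Klra8 and Klra4 had 0 UMIs in NK cells of both libraries. Gzma was at 1528 CPM in CEP and 2378 CPM in Vehicle NK cells, against 1959 and 1390 CPM in CD8 T cells. The lymphocyte sums were small, from 107992 UMIs (CEP NK cells) to 677635 UMIs (Vehicle other T cells), so 3 UMIs, the limit that a count of 0 allows, corresponded to between 4.43 and 27.8 CPM.

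Ctla4, whose product competes with CD28 for CD80 and CD86, was highest in regulatory T cells. Its level there was 800 CPM in CEP (95% exact Poisson interval 682 to 932) and 883 CPM in Vehicle (753 to 1030), against 214 and 286 CPM in CD8 T cells and 140 and 205 CPM in other T cells. The regulatory T values did not overlap those of any other class in either library, while CD8 T and other T cells overlapped in their intervals. Without the neutrophil-gene and keratin cells, regulatory T cells were at 1057 and 940.2 CPM. Other T cells were then at 215 and 307 CPM against 215 and 293 CPM in CD8 T cells, so the order of these classes turned in Vehicle. Ctla4 UMIs were found in 84.4% and 74.1% of regulatory T cells.

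Tigit, an inhibitory receptor for CD155, was also highest in regulatory T cells. It stood at 185 CPM in CEP and 305 CPM in Vehicle regulatory T cells, 70.3 and 66.6 CPM in CD8 T cells, and 47.3 and 38.4 CPM in other T cells. Without the neutrophil-gene and keratin cells it was at 222 and 340 CPM in regulatory T cells. Other T cells were then at 72.8 and 55.2 CPM and CD8 T cells at 69.6 and 67.7 CPM, so their order turned in CEP, with overlapping intervals in both libraries.

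Icos, the co-stimulatory receptor of the CD28 family that binds ICOS ligand, was at 395 and 665 CPM in regulatory T cells, 338 and 378 CPM in other T cells and 202 and 240 CPM in CD8 T cells. Without those cells Icos was at 532 and 710 CPM in regulatory T cells and 517 and 538 CPM in other T cells. Icos was thus spread over all T cell classes, and it was the gene found in most other T cells, 53.2% of those in CEP and 50.9% in Vehicle.

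Pdcd1, the receptor of PD-L1 and PD-L2, was highest in CD8 T cells, with 568 CPM in CEP (491 to 654) and 393 CPM in Vehicle (335 to 457). Regulatory T cells had 132 and 245 CPM, and other T cells 109 and 168 CPM. Without the neutrophil-gene and keratin cells other T cells were at 167 and 243 CPM and regulatory T cells at 121 and 273 CPM, so the order of these classes turned in CEP, while CD8 T cells stayed highest. No Pdcd1 UMI was seen in the 20 CEP or the 21 Vehicle NK cells, which allows up to 27.8 and 20.8 CPM. Over both libraries Pdcd1 was at least 39.6-fold higher in CD8 T than in NK cells, set against a floor of 3 UMIs in the 252223 UMIs of NK cells.

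Lag3, whose product binds MHC class II, and Havcr2, an inhibitory receptor also known from myeloid cells, had their highest lymphocyte levels in CD8 T cells as well. Lag3 was at 158 and 202 CPM in CD8 T cells, 39.0 and 98.1 CPM in regulatory T cells and 18.9 and 14.8 CPM in other T cells. Havcr2 was at 167 and 145 CPM in CD8 T cells but rested on 2 and 3 UMIs in regulatory T cells (9.76 and 16.4 CPM). Cd96, a receptor of the CD155 group, was at 90.8 and 83.3 CPM in CD8 T cells, above 14.6 and 38.2 CPM in regulatory T cells. In other T cells without the neutrophil-gene and keratin cells, Lag3 was at 29.1 and 22.1 CPM, Havcr2 at 43.7 and 15.4 CPM and Cd96 at 43.7 and 53.0 CPM, all below CD8 T cells.

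Cd226, the activating partner of TIGIT and CD96, and Tox had the fewest UMIs of the set when pooled over the 4 lymphocyte classes and both libraries, 118 and 83, next to 122 of Cd96. Cd226 was at 41.0 CPM in CEP and 90.4 CPM in Vehicle CD8 T cells, 23.7 and 51.7 CPM in other T cells, and 14.6 and 38.2 CPM in regulatory T cells. Tox was at 46.8 and 40.5 CPM in CD8 T cells and 34.1 and 92.7 CPM in regulatory T cells, so its order between these classes was opposite in the 2 libraries. Without the neutrophil-gene and keratin cells other T cells were at 36.4 and 68.4 CPM for Cd226 and 21.8 and 41.9 CPM for Tox. In NK cells the 9 genes rested on 0 to 19 UMIs per library, and 12 of the 19 Vehicle Ctla4 UMIs came from 1 cell.

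**Figure D1:**
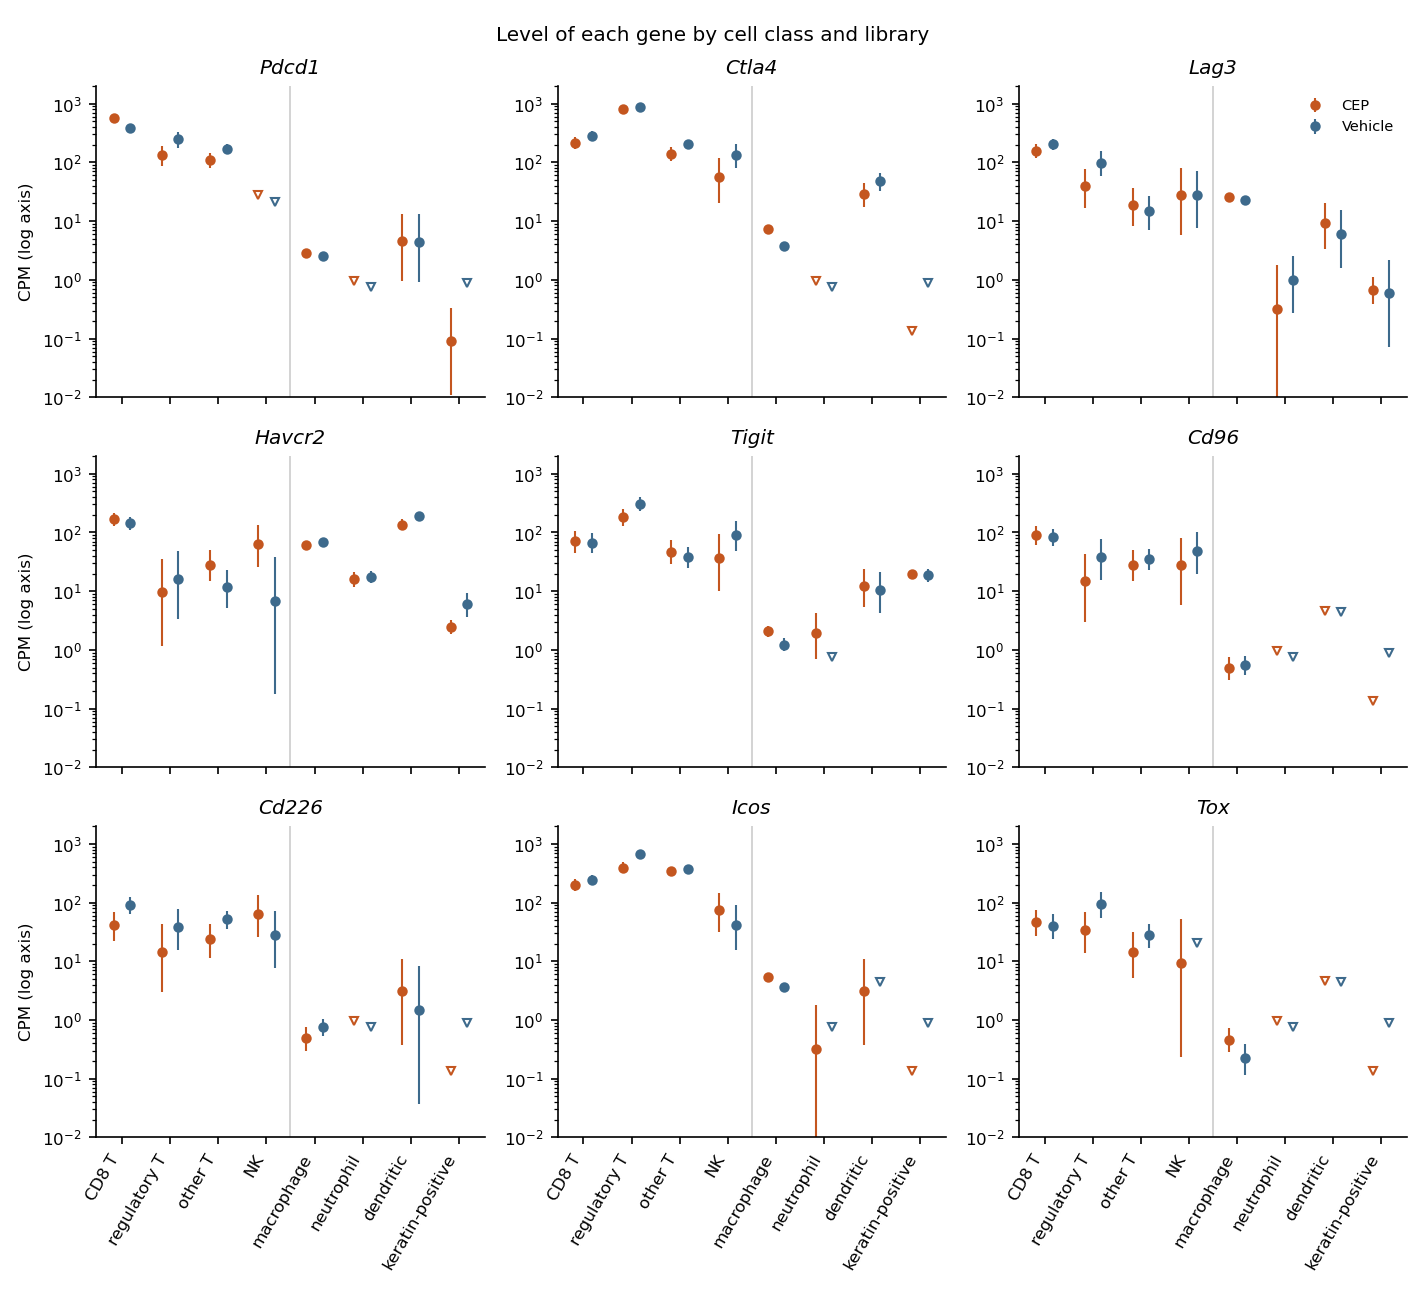
Level of each of the 9 genes in CPM (log axis) by cell class, CEP and Vehicle libraries in 2 colours, with 95% exact Poisson intervals; open triangles mark the limit of 3 UMIs where a class had none. Ctla4 and Tigit are highest in regulatory T cells, Pdcd1 and Lag3 in CD8 T cells, and Havcr2 stays high in macrophages and dendritic cells.

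The differences between classes were tested with edgeR on UMIs summed per library and class, which gives 2 sums a class and a term for library, so the replicate error is that between 2 libraries of different treatment. Between regulatory T and CD8 T cells, 7 of the 9 genes passed at an adjusted p under 0.05, where 3.68% of the 8543 genes tested did, 2.49% as higher and 1.18% as lower. Ctla4, Tigit and Icos were higher in regulatory T cells, by 1.68 ± 0.27 (log2, SE; edgeR adjusted p = 0.00326), 1.72 ± 0.34 (adjusted p = 0.0125) and 1.14 ± 0.28 (adjusted p = 0.0382). Havcr2, Cd96, Lag3 and Pdcd1 were lower in regulatory T cells, with log2 differences of -3.68 ± 0.57 (adjusted p = 0.00288), -1.83 ± 0.46 (adjusted p = 0.0452), -1.52 ± 0.35 (adjusted p = 0.0309) and -1.49 ± 0.35 (adjusted p = 0.0328) in edgeR's test. Cd226 (adjusted p = 0.201) and Tox (adjusted p = 0.771) did not pass. All 7 kept their direction within each library. For 3 of them the CPM ratio of 1 library alone, which is normalized otherwise, differed from the edgeR value by over 1.5-fold. The CPM ratio of Pdcd1 was -2.09 on the log2 scale in CEP alone and -0.67 in Vehicle alone. That of Cd96 was -2.43 and -1.05, and that of Havcr2 -3.79 and -2.94. With stricter gates none of the 7 passed, at edgeR adjusted p-values of 0.094 to 0.315 and with all directions kept.

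Against other T cells, regulatory T cells were higher in Ctla4 by 2.11 ± 0.27 (edgeR adjusted p = 0.00117) and in Tigit by 2.31 ± 0.35 (adjusted p = 0.00287), 2 genes of 9 where 2.08% of all genes passed. Lag3 came to 1.81 ± 0.46 with an edgeR adjusted p of 0.0651. CD8 T cells were higher than other T cells in 4 of the 9 genes, where 9.21% of all genes passed and 2.35% passed as higher. These were Lag3 by 3.33 ± 0.37 (edgeR adjusted p = 9.49e-05), Havcr2 by 2.93 ± 0.42 (adjusted p = 0.000571), Pdcd1 by 1.70 ± 0.33 (adjusted p = 0.00571) and Cd96 by 1.32 ± 0.36 (adjusted p = 0.033). With 1 library left out, the log2 CPM ratio of CD8 T over other T cells was 2.37 in CEP alone and 1.22 in Vehicle alone for Pdcd1, and 2.51 and 3.54 for Havcr2, while that of regulatory T over other T cells for Tigit was 1.95 and 2.98. Without the neutrophil-gene and keratin cells the Cd96 difference was 0.90 with an adjusted p of 0.143, and Icos became lower in CD8 T cells, at -1.18 with an adjusted p of 0.00503.

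Between NK and CD8 T cells, Pdcd1, Lag3 and Icos passed as lower in NK cells, 3 of 9 genes where 1.16% of all genes passed. The Lag3 difference was -2.74 ± 0.47 (edgeR adjusted p = 0.0127) and the Icos difference -2.01 ± 0.39 (adjusted p = 0.0209), with an Icos log2 CPM ratio of -1.37 in CEP alone and -2.42 in Vehicle alone. Tigit was at -0.10 ± 0.45 and Cd226 at -0.61 ± 0.56, neither passing, with 4 to 13 UMIs behind each NK value.

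**Figure D2:**
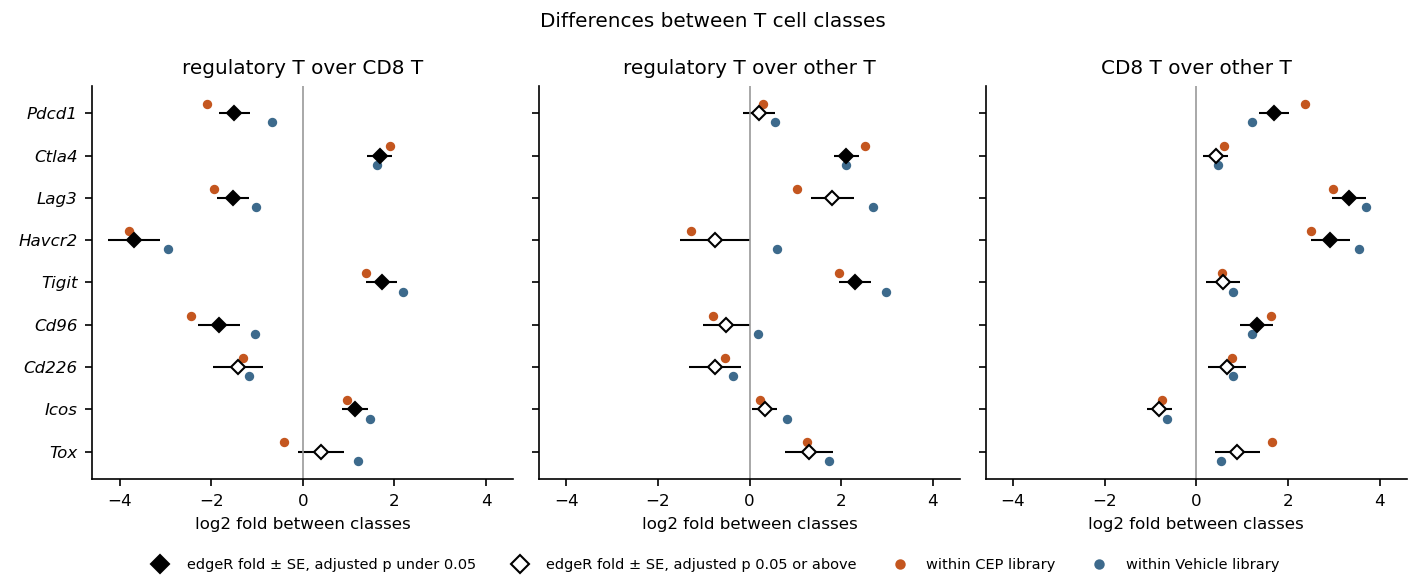
Log2 fold between T cell classes for the 9 genes; diamonds give the edgeR fold with its SE (filled where the adjusted p is under 0.05) and dots the CPM ratio within each library. Ctla4 and Tigit lie to the right in both regulatory T panels, and Havcr2 and Lag3 lie to the right in the CD8 T over other T panel.

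The class differences ran, for Ctla4 and Tigit, toward regulatory T cells and, for Pdcd1 and Havcr2, toward CD8 T cells, and these promoters are shown for that reason. Each stretch, from RefSeq on GRCm38.p6, runs 5′ to 3′ along the gene's strand from 250 bases before to 50 bases after the annotated start. Capitals mark matches on either strand to GGAAA (the core bound by NFAT), TGANTCA (AP-1), TGTGGT (Runx), TGTTTAC (forkhead) and CTTTGAA (TCF/LEF), factors known in T cell activation and differentiation.
Ctla4, chr1:60908775-60909074, plus strand: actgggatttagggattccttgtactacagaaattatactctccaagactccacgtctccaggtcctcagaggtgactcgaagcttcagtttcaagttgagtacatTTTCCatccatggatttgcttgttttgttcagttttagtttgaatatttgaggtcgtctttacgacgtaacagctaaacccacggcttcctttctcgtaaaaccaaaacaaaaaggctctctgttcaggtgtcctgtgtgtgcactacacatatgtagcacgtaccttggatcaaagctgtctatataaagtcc
Tigit, chr16:43664135-43664434, minus strand: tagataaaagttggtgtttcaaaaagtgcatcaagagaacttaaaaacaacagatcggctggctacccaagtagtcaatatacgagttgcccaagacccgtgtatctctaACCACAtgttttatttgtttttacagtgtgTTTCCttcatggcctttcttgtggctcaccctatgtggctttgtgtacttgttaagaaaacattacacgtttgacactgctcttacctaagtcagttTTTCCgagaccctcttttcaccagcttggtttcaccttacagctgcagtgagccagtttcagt
Pdcd1, chr1:94052504-94052803, minus strand: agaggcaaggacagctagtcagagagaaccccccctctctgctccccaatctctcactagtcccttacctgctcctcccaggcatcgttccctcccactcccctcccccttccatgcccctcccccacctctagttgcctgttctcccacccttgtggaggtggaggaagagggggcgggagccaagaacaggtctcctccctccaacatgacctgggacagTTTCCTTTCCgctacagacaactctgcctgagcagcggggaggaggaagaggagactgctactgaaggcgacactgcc
Havcr2, chr11:46454681-46454980, plus strand: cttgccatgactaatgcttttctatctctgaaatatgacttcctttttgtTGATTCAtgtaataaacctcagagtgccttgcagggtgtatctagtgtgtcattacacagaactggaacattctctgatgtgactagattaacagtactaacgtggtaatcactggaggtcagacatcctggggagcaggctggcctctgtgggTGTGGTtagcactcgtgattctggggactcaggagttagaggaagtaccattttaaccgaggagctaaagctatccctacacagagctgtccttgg

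GGAAA or its complement occurred 1 time in Ctla4 and 2 times each in Tigit and Pdcd1 but not in Havcr2; the Pdcd1 matches sit side by side at 28 and 23 bases before the start. It was present in 61.3% of all 32851 promoters of this length. The Runx letters were found 1 time in Tigit and 1 time in Havcr2 (16.8% of promoters) and the AP-1 letters 1 time in Havcr2, 200 bases before the start (7.81%). The forkhead letters (3.65%) and the TCF/LEF letters (5.14%) were in none of the 4 stretches. Only the letters given above were searched, so other forms of these motifs were not read. A match describes letters and no binding. GC content was 60.7% in Pdcd1 and 41.3% to 45.3% in the other 3. Of the other genes, Cd96 was also read and had 5 GGAAA matches and 2 Runx matches.

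Most UMIs of Lag3 and Havcr2 in these libraries were not in lymphocytes. Macrophages held 86.7% of the CEP and 86.0% of the Vehicle Lag3 UMIs, and 71.3% and 77.6% of the Havcr2 UMIs, while the 4 lymphocyte classes held 5.79% and 8.23% of Lag3 and 2.14% and 1.53% of Havcr2. For the other 7 genes the lymphocyte classes held 12.8% (Tigit, CEP) to 63.9% (Tox, Vehicle).

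**Figure D3:**
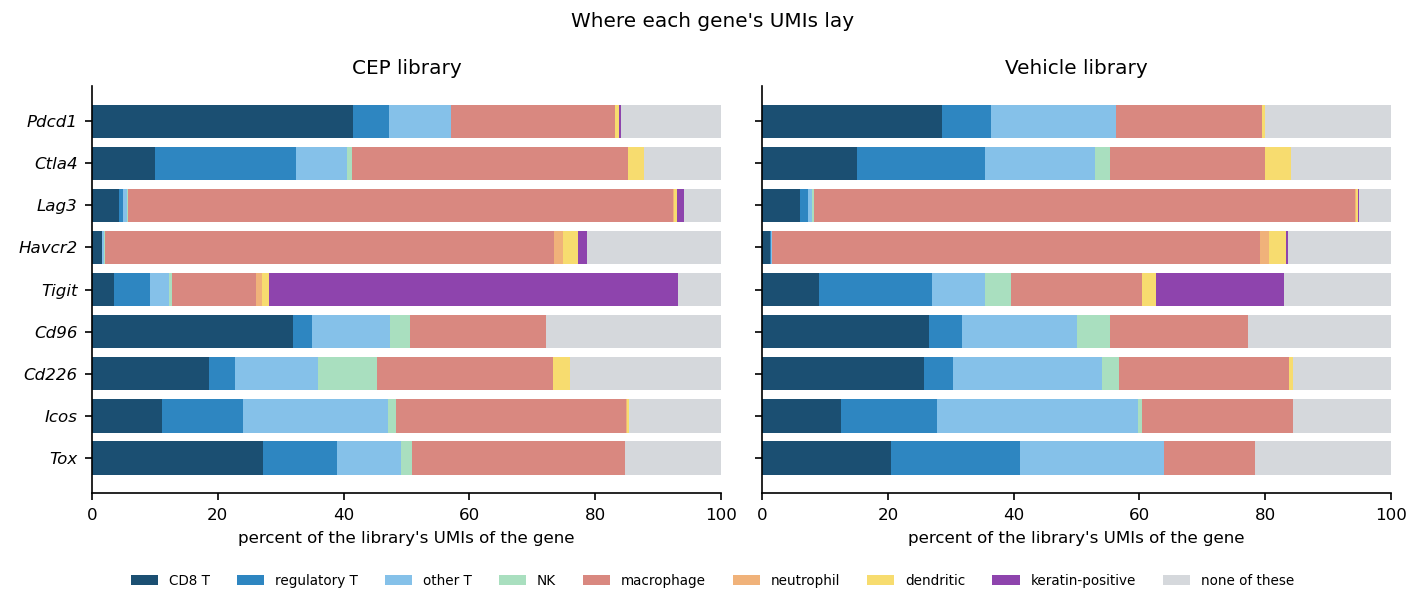
Share of each gene's UMIs in a library that lay in each cell class, in percent, CEP left and Vehicle right. Lag3 and Havcr2 bars are mostly macrophage, and 65.0% of the CEP Tigit bar is keratin-positive cells.

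Macrophages that also held Cd3 UMIs were examined apart. Such cells were 3.53% of CEP and 3.11% of Vehicle macrophages, yet they held 92.6% and 94.8% of the macrophage Pdcd1 UMIs, 96.2% and 90.3% of Ctla4, and 89.9% and 90.1% of Icos. Of the macrophage Lag3 UMIs they held 7.41% and 6.79%, and of the Havcr2 UMIs 4.61% and 3.31%. In macrophages without a Cd3 UMI, Lag3 was at 24.5 and 22.2 CPM and in 17.7% and 17.9% of cells, and Havcr2 at 60.03 and 69.95 CPM and in 38.0% and 44.2% of cells. Ctla4 in macrophages with a Cd3 UMI was at 182 CPM in CEP and 105 CPM in Vehicle, and Pdcd1 at 66.8 and 75.6 CPM. Pdcd1 and Ctla4 were found in 0.125% to 0.359% of macrophages without a Cd3 UMI, at a median depth of 9685 and 10883 UMIs.

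**Figure D4:**
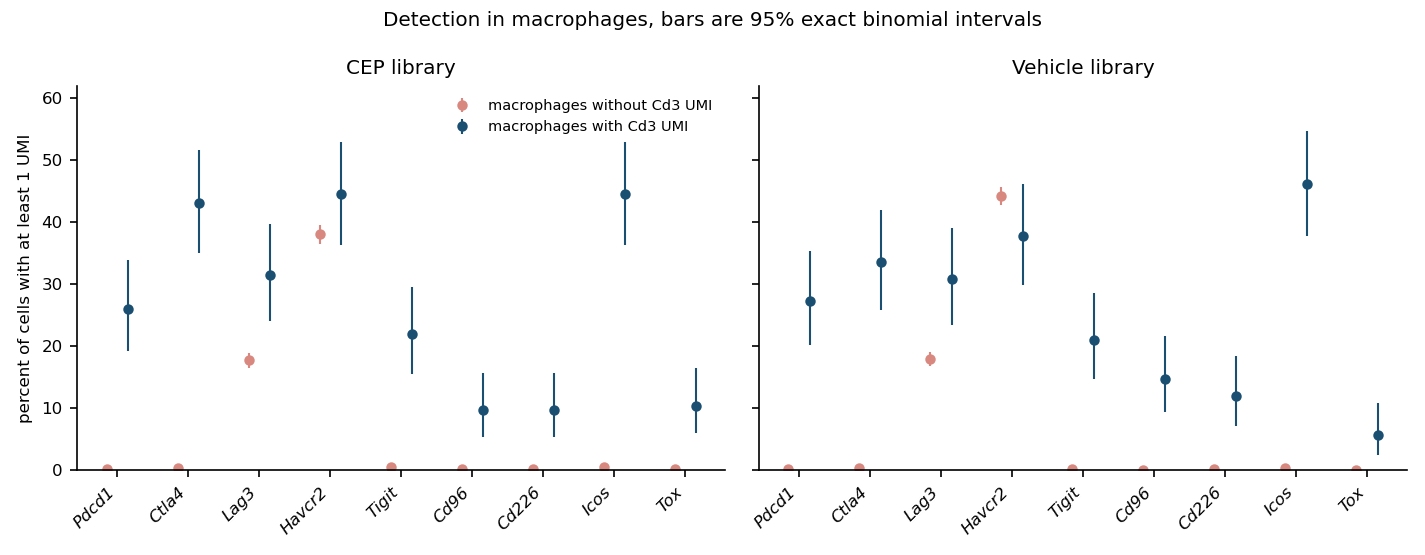
Percent of macrophages with at least 1 UMI of each gene, split by whether the cell held a Cd3 UMI, with 95% exact binomial intervals; CEP left, Vehicle right. Without a Cd3 UMI, Lag3 and Havcr2 are found in 17.7% to 44.2% of cells and each of the other 7 genes in under 1%.

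The macrophage Lag3 level was not shared by other myeloid or keratin-positive cells. Neutrophils were at 0.323 and 1.004 CPM, dendritic cells at 9.18 and 5.94 CPM and keratin-positive cells at 0.679 and 0.595 CPM. In the GENCODE annotation of GRCm38, Lag3 lies on chromosome 6 between Ptms, whose 3′ end is 1976 bases before the Lag3 start on the same strand, and Cd4. Ptms, the gene of parathymosin, was at 392 and 362 CPM in macrophages, 560 and 457 CPM in dendritic cells and 155 and 150 CPM in CD8 T cells. There were 6.48 and 6.38 Lag3 UMIs for each 100 Ptms UMIs in macrophages, 1.64 and 1.30 in dendritic cells and 102 and 135 in CD8 T cells. Whether reads from Ptms transcripts add to Lag3 counts was not tested.

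Havcr2 was as high in dendritic cells as in CD8 T cells, at 136 and 188 CPM, and was found in 54.0% and 62.1% of them. Neutrophils had 16.2 and 17.6 CPM. Ctla4 in dendritic cells was at 29.1 and 47.5 CPM, found in 14.3% and 22.4% of them with no Cd3 UMI by the gate.

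Tigit was also found in keratin-positive cells, which carry at least 5 UMIs of Epcam and keratin genes. The level there was 19.8 CPM in CEP and 18.7 CPM in Vehicle. Dendritic cells, with no Cd3 UMI by the gate, were at 12.2 and 10.4 CPM, with overlapping intervals in both libraries. Of the keratin-positive cells with neither a Cd3 nor a Ptprc (CD45) UMI, 29.4% of 779 in CEP and 27.1% of 118 in Vehicle had a Tigit UMI, and these held 433 of 438 and 63 of 63 of the Tigit UMIs of the class. Ctla4, Icos, Cd96, Cd226 and Tox had 0 UMIs in keratin-positive cells of both libraries. These cells were deep, with medians of 26058 and 25922 UMIs; thinned to 1000 UMIs a cell, Tigit was in 0.865% of CEP and 0.787% of Vehicle keratin-positive cells, against 0.219% and 0.109% of macrophages (7 and 1 keratin-positive cells, 9 and 5 macrophages). Dendritic cells thinned alike were at 1.59% in CEP and 1.72% in Vehicle, 1 cell each. Since keratin-positive cells were 9.19% of kept CEP cells and 1.40% of kept Vehicle cells, they held 65.0% and 20.3% of the Tigit UMIs of the libraries. Which part of the Tigit gene these reads cover was not examined, and their source was not tested.

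The comparison of CEP with Vehicle asks whether the receptor levels of tumour lymphocytes differ with cepharanthine. It rests on 1 library per group, so no test was made and the intervals cover counting error only. T cells made up a smaller share of all kept cells in CEP, where keratin-positive cells were 9.19% of kept cells against 1.40% in Vehicle. The CD8 T share was 0.510% in CEP and 0.782% in Vehicle (ratio 0.652, interval 0.45 to 0.945). The regulatory T share was 0.362% and 0.586% (0.618, 0.40 to 0.956), the other T share 1.26% and 1.90% (0.662, 0.523 to 0.838) and the NK share 0.227% and 0.228%. Over barcodes with a Ptprc UMI, which leaves most keratin-positive cells out of the denominator, the CD8 T ratio was -0.27 on the log2 scale in place of -0.62. The intervals above do not cover this choice of denominator, which bears on the other classes as well.

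In CD8 T cells most receptors were close between the libraries. Of the 9 genes, 1 differed by at least 1.5-fold, where 21.9% of the 4675 genes with at least 20 UMIs did, and the median log2 ratio of the 9 was 0.08 against 0.01 over all those genes. The gene past 1.5-fold was Cd226, lower in CEP, with a log2 ratio of -1.11 (interval -2.14 to -0.22) on 14 and 38 UMIs. Pdcd1 was higher in CEP by 0.53 (0.23 to 0.84), a 1.45-fold difference, on 194 and 165 UMIs. It stayed between 0.38 and 0.58 with doublets kept, stricter gates, equal weight for each cell, the neutrophil-gene and keratin cells left out and without the top cell of each library, but was -0.65 when each cell was thinned to 1000 UMIs, where 16.3% of CEP and 27.9% of Vehicle CD8 T cells had a Pdcd1 UMI. Those shares rest on 7 of 43 and 19 of 68 cells. Thinned to 3000 UMIs, Pdcd1 was in 24 of 36 CEP and 26 of 45 Vehicle CD8 T cells, the larger share in CEP. The median depth of CD8 T cells was 5523 UMIs in CEP and 3672 UMIs in Vehicle. Ctla4, Lag3, Havcr2, Tigit, Cd96, Icos and Tox had intervals that include 0.

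In regulatory T cells 5 of the 6 genes with at least 20 UMIs were lower in CEP by at least 1.5-fold, where 33.0% of 3066 genes passed in either direction and 18.7% as lower. The median log2 ratio of the 6 was -0.82, against -0.05 over all genes. Tox was at -1.38 (-2.95 to -0.10), Lag3 at -1.28 (-2.74 to -0.06), Pdcd1 at -0.89 (-1.64 to -0.18), Icos at -0.75 (-1.18 to -0.33) and Tigit at -0.71 (-1.35 to -0.10). Ctla4, the most abundant of the 6, was at -0.14 (-0.47 to 0.18). Havcr2, Cd96 and Cd226 had 5, 10 and 10 UMIs over both libraries, and no ratio is given. The number past 1.5-fold was 1 with stricter gates, 2 with each cell weighted alike and 2 with cells thinned to 1000 UMIs; without neutrophil-gene and keratin cells it was 4, with Icos at -0.41 and Ctla4 at 0.17. T cell marker genes as a list were also lower in the CEP gate, at 2751 against 4002 CPM, and at 3489 against 4197 CPM without those cells; their part in the result was not tested.

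Other T cells had 4 of 8 genes past 1.5-fold, where 24.3% of 5938 genes were. Pdcd1 (-0.62, -1.16 to -0.12), Tox (-0.90, -2.60 to 0.40) and Cd226 (-1.08, -2.31 to -0.08) were lower in CEP, and Havcr2 was higher by 1.24 (-0.15 to 2.76) on 12 and 8 UMIs. Without the neutrophil-gene and keratin cells the number was 2, and with cells thinned to 1000 UMIs it was 0. Cd226 was the gene past 1.5-fold on the lower side in both CD8 T and other T cells, and its ratio in other T cells was -0.86 without those cells. NK cells had 1 gene with at least 20 UMIs, Ctla4, at -1.17 (-2.86 to 0.14), where 30.9% of 1877 genes passed 1.5-fold.

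**Figure D5:**
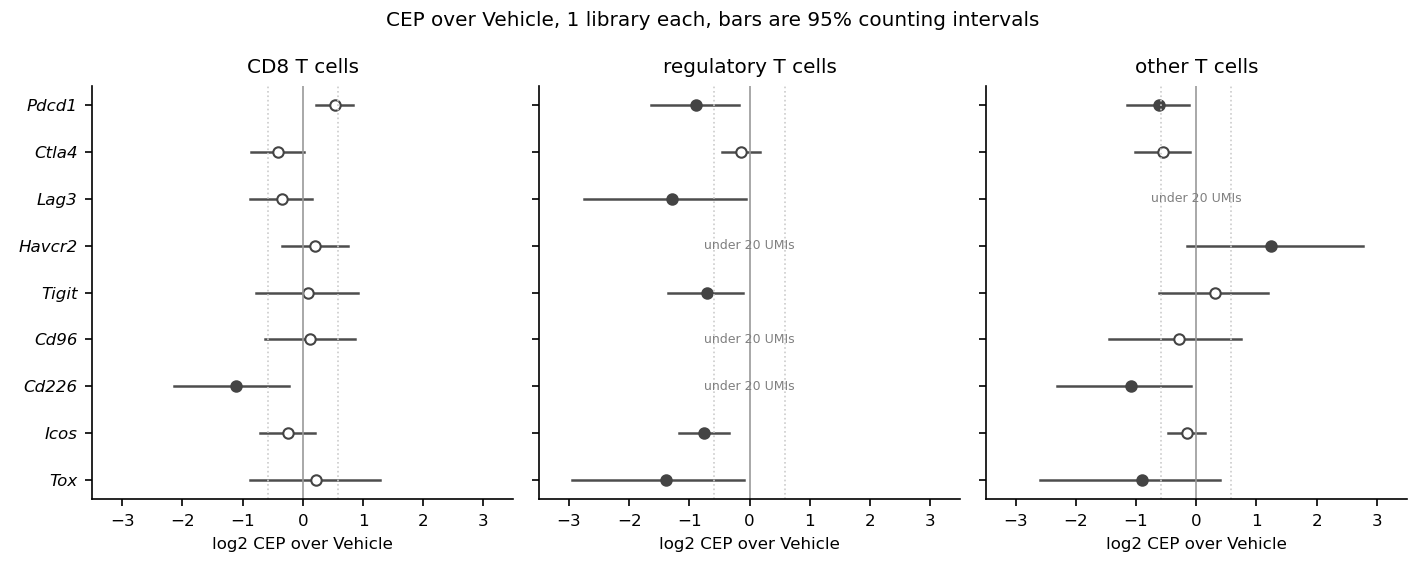
Log2 ratio of CEP over Vehicle for each gene in 3 T cell classes, 1 library each, with 95% counting intervals; filled points lie past 1.5-fold (dotted lines). Regulatory T points lie left of 0 for all 6 genes shown, while Pdcd1 lies right of 0 in CD8 T cells.

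Several receptors were found together in single CD8 T cells. With each cell thinned to 3000 UMIs, 15 of the 36 gene pairs had at least 3 expected cells in each library, and 10 of them were found together more often than the product of their shares gives in both libraries, with 0 below it in both. Lag3 and Tigit, the pair with the highest ratio of the 15, were at 1.61 in CEP and 1.93 in Vehicle, on 5 of 36 and 9 of 45 cells. The excess was small for some of the 10. Pdcd1 and Cd96 were together in 5 CEP cells against 4.67 expected, and in 7 Vehicle cells against 6.93. Pdcd1 and Lag3 were together in 10 against 9.33 and in 13 against 12.1. Other gene pairs were not counted, so the 10 have no background share beside them. At 1000 UMIs no CD8 T pair reached 3 expected cells, and at full depth 31 of 32 pairs were above 1, where deep cells count in every gene. At full depth 64.4% of CEP and 61.1% of Vehicle CD8 T cells held at least 3 of the 9 transcripts, as did 68.8% and 63.0% of regulatory T cells and 19.8% and 24.0% of other T cells. The median depths were 5523 and 3672 UMIs in CD8 T, 3050 and 2265.5 UMIs in regulatory T and 2385 and 2613 UMIs in other T cells. Thinned to 1000 UMIs a cell, the shares were 18.6% and 7.35% of CD8 T, 13.8% and 30.2% of regulatory T and 8.74% and 5.45% of other T cells, and the intervals of CD8 T and other T cells overlapped in both libraries.

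The genes whose levels were most like each member's over 14 points (7 classes in 2 libraries, keratin-positive cells left out) are a description, since classes and libraries are shared. Pdcd1 was closest to Trac, the constant segment of the T cell receptor alpha chain (Pearson r = 0.984). Ctla4 was closest to Il2ra, the interleukin-2 receptor alpha chain of regulatory T cells (0.972), with Tigit the next but one (0.964), and Icos to Cd2, an adhesion receptor of T cells (0.986). Lag3 was closest to Dnajc9, a histone chaperone of dividing cells (0.920), and Havcr2 had no gene above 0.846. Cd96 was closest to Cst7, a protease inhibitor gene of cytotoxic cells (0.969), Cd226 to Skap1, an adaptor of T cell receptor signalling (0.951), Tigit to Msi2, an RNA-binding protein gene (0.977), and Tox to Unc13d, a gene of granule release (0.972).

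Genes of the same pathway were read in CD8 T cells by lists. Of 18 exhaustion-linked genes, 15 had at least 20 UMIs; 2 were higher in CEP by at least 1.5-fold and 1 lower, a share close to the 21.9% of all genes, and their median log2 ratio was 0.22 against 0.01. Entpd1, the ectonucleotidase CD39, was higher by 1.12 (0.44 to 1.86) and Nr4a3, a nuclear receptor induced by T cell receptor signals, by 0.65 (0.10 to 1.21), while Prdm1, the repressor Blimp-1, was lower, at -1.36 (-3.04 to -0.07). Of 7 measured stem-like and naive genes, 3 were higher and 3 lower. Xcl1, a chemokine for cross-presenting dendritic cells, was at 1.99 (1.36 to 2.70) and Klf2, a factor of quiescent recirculating cells, at -1.61 (-2.32 to -0.98). Of 12 measured effector genes, 3 were lower and 0 higher: Ccl3 at -2.00 (-3.20 to -1.06), Ifng, the cytokine interferon gamma, at -1.33 (-1.86 to -0.84) and Ccl4 at -1.11 (-1.55 to -0.71). Gzma, a granule protease gene, was at 0.49 (0.33 to 0.66). The 3 of 12 effector genes were near the 21.9% of all genes, and no share for the lower direction alone is given.

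Among 12 other co-receptors measured in CD8 T cells, where 21.9% of all genes passed 1.5-fold, 1 passed. It was Tnfrsf4 (OX40, co-stimulatory), higher in CEP by 0.85 (0.33 to 1.39). None of 14 measured genes of receptor signalling, such as Lck, Zap70 and Ptpn11, was past 1.5-fold. In regulatory T cells, where 33.0% of all genes passed, 3 of 8 other co-receptors were lower and 0 higher, 1 of 13 exhaustion-linked genes was higher and 1 lower, and 1 of 6 stem-like and naive genes was higher and 3 lower. Cd28, the co-stimulatory receptor opposed by CTLA-4, was at -1.94 (-3.24 to -0.89) and Tnfrsf4 at -0.68 (-0.95 to -0.42). Rgs16, an exhaustion-linked gene that regulates G protein signals, was at -2.10 (-3.49 to -1.01). Id3, of the stem-like list, was at 3.24 (1.94 to 5.33) on 47 and 4 UMIs. These regulatory T list values include the neutrophil-gene and keratin cells, 3 of 32 CEP and 2 of 54 Vehicle cells. The part of those cells in the list values was not tested.

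The ligands of these receptors were measured best in macrophages, where 1 of 13 genes passed 1.5-fold, Nectin3 on 21 and 7 UMIs, and 9.17% of all 13676 genes did. Cd274, encoding PD-L1, was at 93.4 CPM in CEP and 122 CPM in Vehicle macrophages (-0.38, -0.44 to -0.32), Cd86 at 99.8 and 119 CPM (-0.25) and Icosl at 11.3 and 13.8 CPM (-0.29). Pvr, encoding CD155, was at 20.7 and 20.9 CPM, and Cd80 at 29.9 and 30.1 CPM, both within 0.02 of 0 on the log2 scale. In dendritic cells, 63 in CEP and 58 in Vehicle, 4 of 11 ligand genes were higher in CEP by at least 1.5-fold and 0 lower, where 20.1% of 6324 genes passed and 11.5% as higher. These were Pvr at 1.497 (0.51 to 2.68), Nectin2 at 1.09 (-0.24 to 2.68), Icosl at 0.96 (-0.03 to 2.08) and Lgals9 at 0.83 (0.13 to 1.58), on 31 and 11, 15 and 7, 25 and 13, and 47 and 27 UMIs.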

How the data were processed

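The deposited values are UMI counts for every gene in every called cell, not normalized, per the file headers. The submitters' processing notes name mm10 and Cell Ranger 5.0.1, and the file headers Cell Ranger 7.1.0. The handling of intronic reads, which bears most on genes with long introns such as Tox, is not stated in these sources. Groups came from the sample titles.

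Of 9621 CEP and 9989 Vehicle barcodes, 77 and 57 had fewer than 200 genes or over 15% mitochondrial UMIs and were left out. Doublets were scored with Scrublet in scanpy 1.11.5; its automatic threshold marked 1 and 0 cells, so the top 8% by score were removed (716 and 722). Kept cells had medians of 6200.5 and 5777.5 UMIs.

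Levels are counts per 1000000 UMIs of a class (CPM) with 95% exact Poisson intervals. Detection shares have Clopper-Pearson intervals and ratios an exact conditional binomial interval; log2 ratios add 0.5 UMI to each sum and are given from 20 UMIs over both libraries. All cover counting error only, not the spread between cells or animals. No test was made between CEP and Vehicle. Classes were compared with edgeR 4.0.16 (quasi-likelihood test, TMM, terms for class and library) on 8 sums of UMIs per library and class, over genes with at least 20 UMIs and without the gate genes, with Benjamini-Hochberg adjustment over all genes tested; SEs follow from the F statistic. The code was tested on simulated data. DESeq2 1.42.0 was an alternative. The genes, gates, marker lists and gene lists were chosen with earlier results of these data known. Up to 4 genes of a list were named, by largest absolute log2 ratio among those with at least 20 UMIs, and up to 3 genes by likeness of level to each receptor. The ligand genes Cd86, Pvr and Cd80 were chosen after their values were seen. So were the pairs Lag3 and Tigit, Pdcd1 and Cd96, and Pdcd1 and Lag3. Promoters came from RefSeq and were read for Pdcd1, Ctla4, Havcr2, Tigit and Cd96. Lag3, Icos and Tox had no entry in the promoter set used, and Cd226 was left out. Other sequences are not shown.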

Additional observations from a re-analysis of the deposited data

Results flagged for a closer look

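Pdcd1 was flagged because its CEP over Vehicle ratio had opposite signs in different T cell classes. In CD8 T cells the log2 ratio was 0.53, in regulatory T cells -0.89 and in other T cells -0.62. The difference between classes was not tested, since each value compares 1 library with 1 library. When every cell was thinned to 1000 UMIs, the CD8 T value was -0.65 and had the sign of the other 2 classes. That value rests on 7 of 43 CEP and 19 of 68 Vehicle cells with a Pdcd1 UMI. Thinned to 3000 UMIs, Pdcd1 was in 24 of 36 CEP and 26 of 45 Vehicle CD8 T cells, the larger share in CEP. The sign thus depended on the thinning depth, and each thinning was 1 random draw.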

How the results depend on the processing

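Between regulatory T and CD8 T cells the number of the 9 genes past the threshold was 7 in edgeR's test, 4 in DESeq2 (which gave 3 genes no adjusted p), 3 with doublets kept, 0 with stricter gates and 3 without the library term. Between regulatory T and other T cells it was 1 with stricter gates in place of 2. Between NK and CD8 T cells it was 6 with no minimum count, 1 with stricter gates and 5 without neutrophil-gene or keratin cells, in place of 3. Direction was kept in each of the 16 calls under these settings and within each library. Ctla4 over other T cells, Pdcd1, Lag3 and Havcr2 in CD8 T over other T cells and Pdcd1 in NK against CD8 T cells passed under all 8 alternatives. With 1 library kept and no test, the CPM ratio differed from the edgeR value by over 1.5-fold in 4 (CEP kept) and 5 (Vehicle kept) of 15 calls. All 15 directions were kept, and Pdcd1 in NK cells had no ratio. The model was not fitted again, and the CPM ratio has no TMM normalization, so the measures differ as well. No paired analysis was possible because each group has 1 library; the library term blocks the class comparisons.

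The number of genes past 1.5-fold between CEP and Vehicle in CD8 T cells was 3 with stricter gates, 3 with each cell weighted alike and 2 thinned to 1000 UMIs, in place of 1. In regulatory T cells it was 1, 2 and 2 under these settings and 3 with a minimum of 50 UMIs, in place of 5. In other T cells it was 2 with cells weighted alike, 0 thinned, 1 with a minimum of 50 UMIs and 2 without neutrophil-gene or keratin cells, in place of 4. In NK cells it was 0 with stricter gates, 0 thinned, 5 with a minimum of 10 UMIs and 0 with 50, in place of 1. Ctla4, the gene with the most UMIs in NK cells, had 6 in CEP and 19 in Vehicle, so no gene could be counted there at 50. At 50 UMIs Lag3 and Tox could not be counted in regulatory T cells, nor Havcr2, Tox and Cd226 in other T cells. The lower numbers at 50 UMIs therefore do not show that a difference was lost. How many genes could be counted with stricter gates or thinned is not given. Tox in regulatory T cells was 0.13 when thinned, in place of -1.38, but thinned Tox was in 1 of 29 CEP and 2 of 53 Vehicle cells. So few cells cannot show whether the difference changed. Pairs found together more often than their shares give in both libraries were counted among pairs with at least 3 expected cells in each. They numbered 31 of 32 in CD8 T and 8 of 12 in regulatory T cells at full depth, and 10 of 15 and 2 of 4 at 3000 UMIs. At 1000 UMIs they numbered 0, where no CD8 T pair and 1 regulatory T pair could be counted. Fewer pairs could thus be counted at lower depth, and the cause of the remaining differences was not tested. The settings that leave out neutrophil-gene or keratin cells, leave out the top cell or thin to 3000 UMIs were chosen after seeing the data.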
